A study of Homo sapiens with 12 samples.

Results

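The replication-dependent histone genes are the protein-coding genes that carried the older symbols HIST1H, HIST2H, HIST3H and HIST4H, which code for the linker histone H1 and the core histones H2A, H2B, H3 and H4. They were matched by Ensembl identifier to the deposited table of counts over exons, which gave 71 members of 58051 genes. The members were 6 H1, 17 H2A, 18 H2B, 15 H3 and 15 H4 genes, and 19 HIST pseudogenes and noncoding genes were left out. The cells were HCT116, an established human colon carcinoma line, treated with siControl, siPFDN2 or siPFDN5. PFDN2 and PFDN5 are subunits of prefoldin, a chaperone that passes unfolded actin and tubulin to the cytosolic chaperonin. Each siRNA was added 24 h before a serum starvation of 48 h, and RNA was taken at the end of starvation (before serum) or 90 min after serum was given back (after serum), which made 6 groups of 2 libraries. All groups came from a single cell line, and all had received an siRNA and been starved. The labels do not say whether the 2 libraries of a group came from separate cultures, so the p-values measure only the spread between these libraries, which may be technical.

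Replication-dependent histone mRNAs supply the histones that package newly made DNA, and they accumulate in S phase. Most lack introns and end not in a poly(A) tail but in a short hairpin, the stem-loop, which is bound by the stem-loop binding protein SLBP. SLBP acts in the cleavage that forms the 3′ end, in translation and in the decay of these mRNAs when DNA synthesis stops. Their transcription depends on NPAT, a substrate of cyclin E-CDK2 found at the histone gene clusters. Serum starvation holds many cells in G1 or G0, and cells given serum again need hours to reach S phase.

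The exon counts came to 46158398 to 114454288 per library. Of the 9 markers listed for a colon epithelial line 6 reached 1 CPM (counts per 1000000, after scaling of the library totals), while LGALS4, CDX1 and CEACAM5 stayed under 0.2 CPM in every library. The blood markers summed to 0.163 to 0.864 CPM, the endothelial markers to 0.825 to 1.69 CPM and the fibroblast markers to 4.91 to 19.9 CPM. One library stood apart, siPFDN2 before serum replicate 2. Its deviation from the mean of all 12 libraries followed the GC content of the genes (Spearman's rho 0.738 across genes, against -0.315 to 0.0742 in each of the other 11 libraries). The SD of the log2 difference between the 2 replicates was 0.717 in its group and 0.107 to 0.183 in the other groups. With it in the fit the biological coefficient of variation was 17.1%, and without it 7.87%. The counts of members called are therefore given with and without that library. In comparisons that do not use this group, leaving out its other library gave nearly the same counts. Without it the siPFDN2 group before serum has 1 library, which the fit assumes to vary like the other groups.

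The targeted genes were read first. Before serum, PFDN2 had 11.1 and 11.1 CPM in siControl and 6.52 and 6.66 CPM in siPFDN2. After serum the values were 20.3 and 17.02 CPM in siControl against 7.96 and 9.42 CPM in siPFDN2. Before serum, PFDN5 had 94.1 and 84.3 CPM in siControl and 52.2 and 55.5 CPM in siPFDN5. After serum the siControl libraries had 87.3 and 90.1 CPM of PFDN5 and those labelled siPFDN5 had 78.0 and 79.6 CPM, a log2 fold change of -0.17 (edgeR, adjusted p = 0.506). Neither target passed the test against siControl at either time in the fit to all libraries. The libraries labelled siPFDN5 after serum thus held PFDN5 close to the control level, and every direction below that uses them rests on their label. PFDN2, not targeted there, averaged 23.5 CPM in siPFDN5 before serum against 11.1 CPM in siControl. After serum it averaged 28.2 CPM under the siPFDN5 label against 18.7 CPM in siControl. Whether the labels are right was not tested.

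The stem-loop shows what these mRNAs share. The letters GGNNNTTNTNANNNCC (16 bases, with a stem of 6 pairs and a loop of 4 bases) were searched for on the sense strand of annotated transcripts (GENCODE 29, GRCh38) and were found in 31 of the 71 members (43.7%), against 52 of 58605 other genes (0.0887%). The annotated transcripts of the other 40 members do not hold these letters. An annotation that ends before the stem-loop cannot hold it, and many are short, such as HIST1H4A (312 bases) and HIST1H3B (411 bases). The 43.7% is thus a share of annotations and does not show that the other members lack a stem-loop. The following windows, with the stem-loop in capitals and written as DNA, are from 4 members that fell with serum in siControl and from HIST1H3E, whose loop differs from the others.
HIST1H2AC: cccaaaGGCTCTTTTCAGAGCCcccctacc
HIST1H2BF: cccaaaGGCTCTTTTAAGAGCCacccactt
HIST1H3H: cccaaaGGCTCTTTTCAGAGCCacccacat
HIST1H4B: tccaatGGCCCTTTTCAGGGCCgcccactc
HIST1H3E: tccaaaGGCTCTTCTCAGAGCCaacca
All 8 H4 stem-loops began with GGCC and all 23 stem-loops of the other classes with GGCT.

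The promoters differed by class. RefSeq promoters (GRCh38.p14, 250 bases before to 50 after the start) were matched for 66 of the 71 members. The octamer ATTTGCAT, a POU2F1 site, was present on either strand in 14 of 18 H2B, 11 of 16 H2A and 1 of 13 H3 promoters and in none of the H1 and H4 promoters, against 1.77% of all 35116 promoters. That H3 promoter, matched to HIST1H3D, is the same stretch as the one matched to HIST1H2AD (chr6:26199294-26199413), so it is counted in both classes. GGTCCG, part of the H4 element, was present in 12 of 13 H4 promoters and in 3 of the other classes, against 11.3% of all promoters. AAACACA, the H1 box, was present in 6 of 6 H1 promoters and in 3 of the others, against 5.64% of all. TATAA was present in 61 of 66 (20.4% of all promoters) and CCAAT in 56 of 66 (34.6%). One promoter of each class is shown, each from a gene that fell with serum in siControl, as the 120 bases before the start with these motifs in capitals on either strand.
HIST1H1C, chr6:26056471-26056590, minus strand: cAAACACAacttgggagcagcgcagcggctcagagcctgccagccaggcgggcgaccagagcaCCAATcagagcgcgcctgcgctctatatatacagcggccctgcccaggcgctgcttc
HIST1H2AB, chr6:26033619-26033738, minus strand: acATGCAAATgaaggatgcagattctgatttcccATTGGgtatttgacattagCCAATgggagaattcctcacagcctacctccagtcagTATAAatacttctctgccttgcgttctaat
HIST1H2BF, chr6:26199396-26199515, plus strand: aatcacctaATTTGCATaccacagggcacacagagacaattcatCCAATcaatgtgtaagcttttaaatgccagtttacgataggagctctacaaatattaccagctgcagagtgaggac
HIST1H3H, chr6:27809931-27810050, plus strand: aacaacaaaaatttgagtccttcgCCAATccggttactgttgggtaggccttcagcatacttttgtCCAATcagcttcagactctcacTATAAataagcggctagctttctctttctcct
HIST1H4B, chr6:26027284-26027403, minus strand: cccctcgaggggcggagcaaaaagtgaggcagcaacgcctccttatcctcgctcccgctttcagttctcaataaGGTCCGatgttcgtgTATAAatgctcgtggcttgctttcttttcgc
Members that were hardly detected carried the same letters: of the 20 matched members under 1 CPM, 19 held TATAA and 6 the octamer. A match is a description of the letters, not a bound site.

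The members made up 0.691% ± 0.0210 (SD, n = 2) of the exon counts in siControl before serum, and their mean levels summed to 5639 CPM, of which the 10 highest members held 53.7%. Of the 71 members, 23 averaged at least 100 CPM over the 12 libraries, 17 were between 10 and 100 CPM, 10 between 1 and 10 CPM, and 21 under 1 CPM. HIST1H4F and HIST1H4G had a count of 0 in every library. Per kilobase of exon, the linker histone genes HIST1H1E and HIST1H1C had the highest levels of all members (876 and 870 CPM per kilobase), and HIST1H1T, the testis H1 and the next of its class, was at 1.36. The leading H2A genes were HIST1H2AH (461), HIST1H2AM (346) and HIST1H2AD (302). The leading H2B genes were HIST1H2BK (638), HIST1H2BO (354) and HIST1H2BD (308). HIST1H3B led the H3 genes at 613, before HIST1H3J at 291 and HIST1H3D at 162, and HIST1H4C led the H4 genes at 511, before HIST1H4D at 423 and HIST1H4B at 342. The order also depends on the annotated exon length. HIST1H2AG had 210 CPM against 179 CPM in HIST1H2AH, but 93.3 CPM per kilobase, since its annotated length is 2250 bases against 387. The order holds for the exon counts, which leave out fragments that map to several places. In the transcript estimates over all 12 libraries, HIST1H4J and HIST1H4K together had 389407 fragments against 194162 for HIST1H4C. HIST2H2AA3 and HIST2H2AA4 together had 371021 against 167069 for HIST1H2AH. The leading H4 and H2A genes may thus differ once copies are counted. Some of the exon counts are also shared. HIST1H2BK shares 50.5% of its 75-base windows with H2BFS, and its transcript estimate was 0.602 times its exon count. HIST1H3J overlaps HIST1H2AM on exons, and its estimate was 0.377 times its exon count, so its place before HIST1H3D is uncertain. HIST1H3D and HIST1H2AD overlap the noncoding gene AL031777.3.

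**Figure D1:**
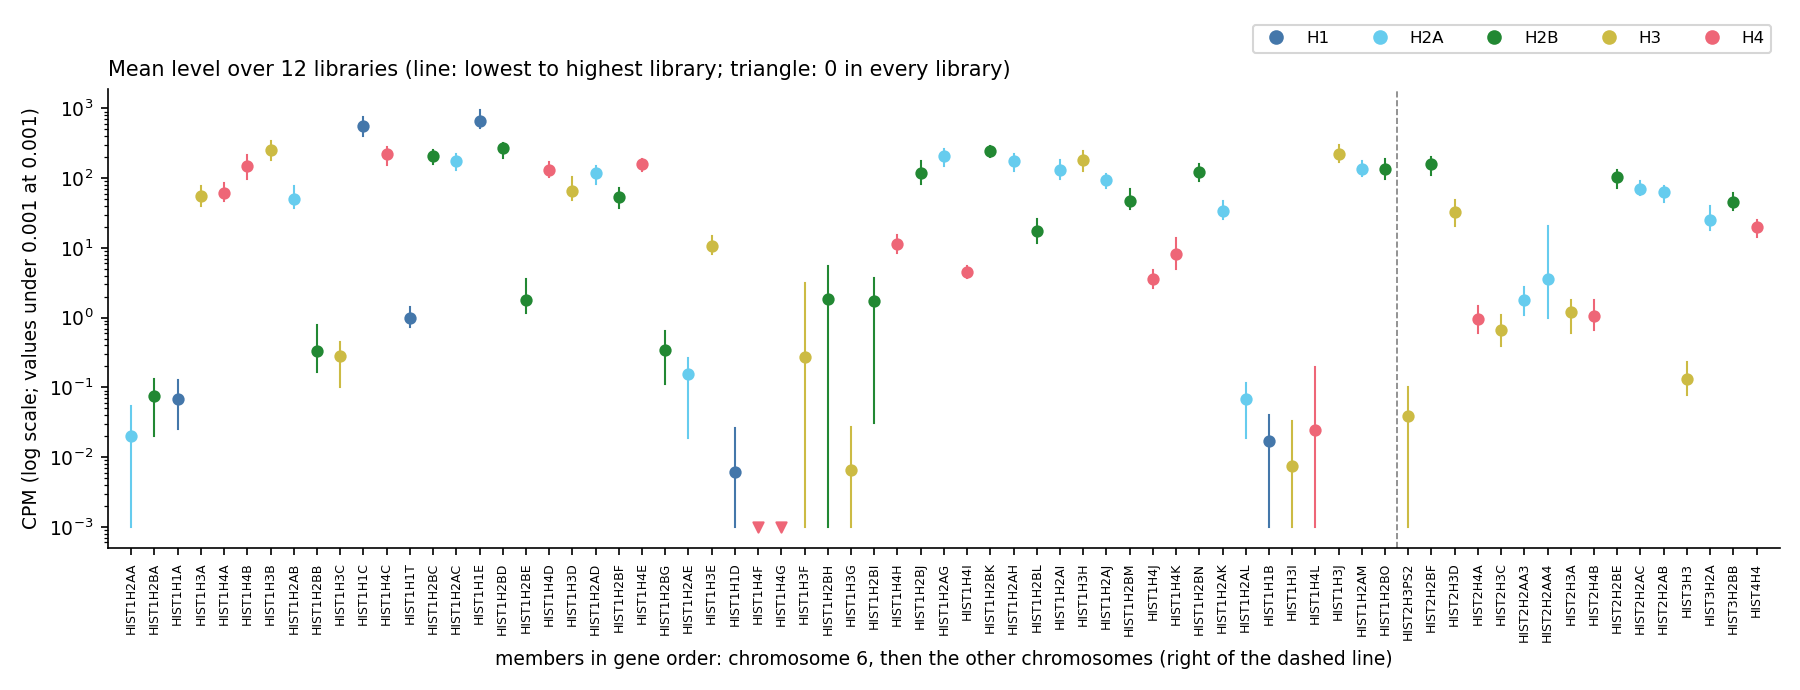
Mean CPM of the 71 members over 12 libraries on a log scale, in gene order along chromosome 6 and then the other chromosomes, coloured by class, with a line from the lowest to the highest library and triangles for the 2 members at 0 everywhere. Members near or above 100 CPM are interrupted by runs of low members, such as the 10 from HIST1H2BG to HIST1H2BI, of which 7 were under 1 CPM.

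High and low members lay side by side in the clusters. On GRCh38 the larger cluster of chromosome 6 (25726132 to 26285638) held 34 members with a summed mean of 3224 CPM, 13 of them under 1 CPM. The smaller cluster of that chromosome (27125897 to 27893843) held 21 members with 1888 CPM, and the HIST2 cluster of chromosome 1 (149782689 to 149887916) held 11 with 435 CPM. From HIST1H2BG to HIST1H2BI, 58.2 kb on chromosome 6 (26215159 to 26273356), 7 of 10 consecutive members were under 1 CPM and their median was 0.215 CPM. The highest of the 10 was HIST1H3E at 10.7 CPM. The median was 119 CPM over the 5 members before them. The only member after them in this cluster was HIST1H4H, at 11.6 CPM. HIST1H2AL, HIST1H1B, HIST1H3I and HIST1H4L, neighbours within 8.16 kb, were at 0.00748 to 0.0679 CPM, and the 3 members after them were at 135 to 226 CPM. Both runs were picked after their values were seen.

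The spread between libraries set some low members apart. HIST1H2BI had 3.34 and 2.56 CPM in starved siControl cells, 0.0308 and 3.20 CPM once serum was given, and 0.0815 and 0.0746 CPM in starved siPFDN5 cells. HIST1H2BH had 3.02 and 4.12 CPM in starved siControl cells and 0 and 1.68 CPM once serum was given. HIST1H3F was near 0 in every library but the second labelled siPFDN5 after serum, at 3.17 CPM. In these 3 genes the libraries of a group were not alike, and the transcript estimates gave a total of 20.2 fragments for HIST1H2BI, 12 for HIST1H2BH and 6 for HIST1H3F over all 12 libraries, against exon counts of 1702, 1691 and 245. The changes of these 3 genes are not read singly. Their exon counts stay in the summed levels, and HIST1H2BI and HIST1H2BH stay in the medians and counts of tested members.

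Near-identical copies limited other members. Of the 71 members, 17 shared over 50% of their 75-base windows with another gene, and fragments that map to several places were left out of the exon counts. The deposited transcript estimates, which divide such fragments among transcripts, gave 389407 fragments for HIST1H4J and HIST1H4K together where the exon counts gave 10502, and 349894 for HIST2H4A and HIST2H4B where the exon counts gave 1781. For HIST2H3A with HIST2H3C they gave 320904 against 1654, and for HIST2H2AA3 with HIST2H2AA4 371021 against 4661. As summed pairs, these copies were thus among the abundant members. Of the 49 members with at least 1000 exon counts, 31 had estimates within 0.8 to 1.25 times the exon count.

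**Figure D2:**
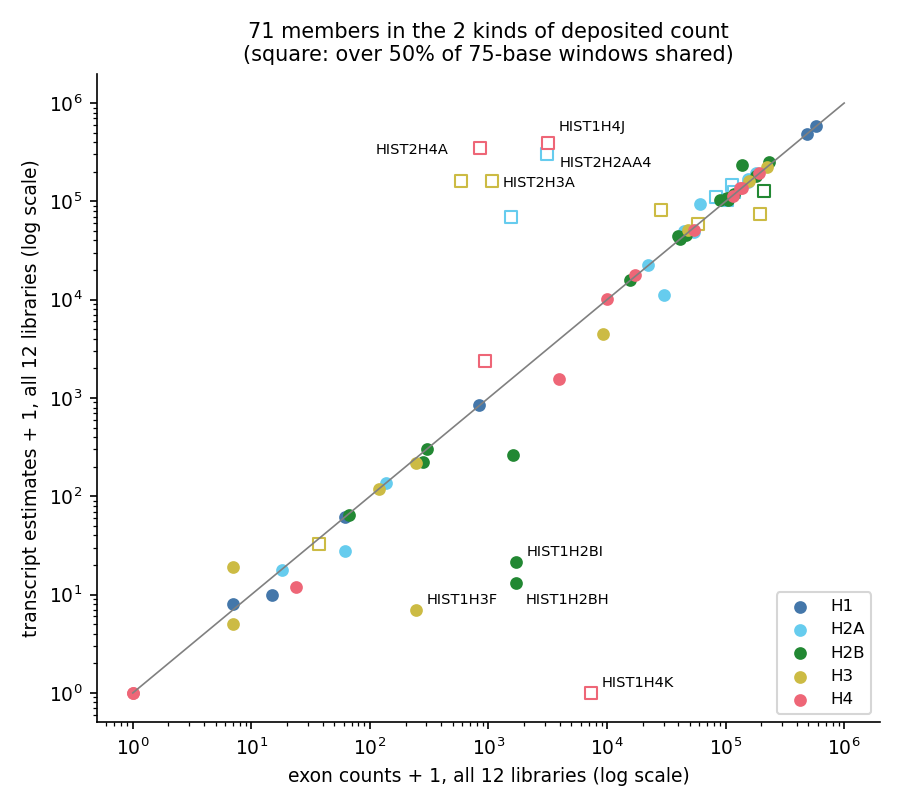
Exon counts plus 1 against transcript estimates plus 1, summed over 12 libraries for each of 71 members on log scales, coloured by class, with squares for members that share over 50% of their 75-base windows. Most members lie on the line of equality; HIST1H4J, HIST2H4A, HIST2H2AA4 and HIST2H3A lie above it and HIST1H4K, HIST1H2BI, HIST1H2BH and HIST1H3F below it.

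The histone mRNAs were lower after serum in control cells. In siControl the 71 members summed to 6837 and 6527 CPM before serum and to 4363 and 4497 CPM after it, a ratio of means of 0.663. Both libraries after serum lay below both before it. All classes took part, with ratios of summed CPM of 0.704 for H1, 0.658 for H2A, 0.641 for H2B, 0.628 for H3 and 0.693 for H4. Over the 40 members with a mean of at least 10 CPM, the ratio after to before ran from 0.504 (HIST1H2BJ) to 0.858 (HIST1H4A), with a median of 0.637, and was below 1 in 40 of 40. In bulk RNA, fewer cells with histone mRNA and less histone mRNA per cell cannot be told apart.

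**Figure D3:**
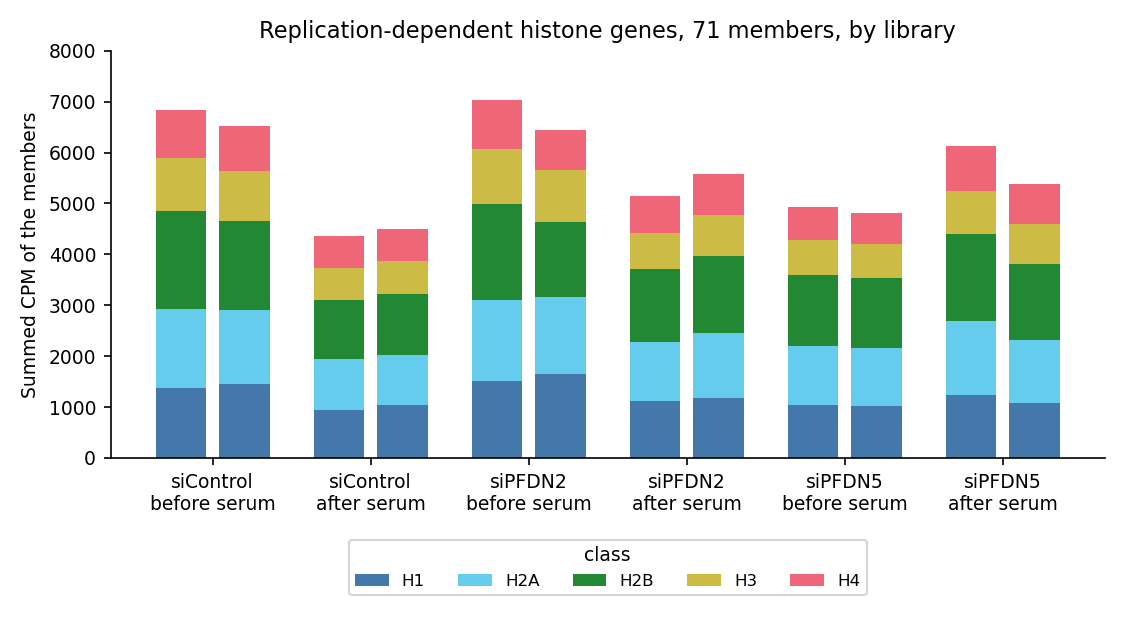
Summed CPM of the 71 members in each of the 12 libraries, stacked by class and starting at 0. The siControl libraries fall from 6837 and 6527 before serum to 4363 and 4497 after it, and those labelled siPFDN5 go from 4937 and 4808 to 6120 and 5376.

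In the test across genes, 58 members passed the filter on low counts among 24889 genes tested (edgeR's quasi-likelihood test, Benjamini-Hochberg adjusted p under 0.05). With serum in siControl, 15 members fell, where 0.394% of all genes did, and 1 rose, where 1.73% did. The median log2 fold change was -0.62 over the members tested and -0.0045 over all genes. Without siPFDN2 before serum replicate 2, 41 of 60 members fell (5.52% of all genes) and none rose (6.49% of all). Leaving out siPFDN2 before serum replicate 1 in its place also gave 41. The call of single members rested on each library: none was called without siControl before serum replicate 1 or siControl after serum replicate 1, 2 fell without siControl before serum replicate 2, and 4 fell without siControl after serum replicate 2 or without either siPFDN5 library before serum. Without siPFDN2 after serum replicate 1 or 2, 6 and 8 fell, and without siPFDN5 after serum replicate 1 or 2, 11 and 9 fell. For the fits without a library of another group than siPFDN2 before serum, the share of all genes called is not given. Their counts therefore have no background beside them. The median log2 fold change stayed between -0.70 and -0.56 over all the fits with a library left out.

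HIST1H4B (chr6:26026815-26027252, minus strand), an H4 gene, had 213 and 199 CPM in starved siControl cells and 98.3 and 115 CPM with serum, a log2 fold change of -0.95 ± 0.14 (SE; edgeR, adjusted p = 0.00427). HIST1H3H (chr6:27810064-27811300, plus strand), an H3 gene, was at 249 and 233 CPM and then at 125 and 137 CPM, -0.88 ± 0.13 (adjusted p = 0.00405). HIST2H3D (chr1:149813271-149813681, minus strand), an H3 gene of the HIST2 cluster, was at 41.9 and 42.2 CPM and then at 21.0 and 23.5 CPM, -0.92 ± 0.15 (adjusted p = 0.0088). The 2 groups did not overlap in these 3 genes, nor in the 3 named next. All were picked because they were called, and the share of all genes without overlap was not counted. HIST1H2AB (chr6:26033176-26033568, minus strand), an H2A gene, was at 73.3 and 58.9 CPM before and 36.8 and 36.9 CPM after serum (-0.84, adjusted p = 0.025). HIST1H2BO (chr6:27893463-27893843, plus strand), an H2B gene, was at 186 and 163 CPM before and 96.1 and 99.6 CPM after serum (-0.83, adjusted p = 0.038). The linker histone gene HIST1H1C (chr6:26055787-26056428, minus strand) was at 655 and 697 CPM before and 403 and 456 CPM after serum (-0.65, adjusted p = 0.031). The other 9 that fell were HIST1H2BF, HIST1H2AK, HIST2H2BE, HIST3H2BB, HIST1H2AH, HIST1H2AD, HIST1H3J, HIST1H2AG and HIST1H2AC, with log2 fold changes of -0.83 to -0.65.

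The leading members of each class by level that did not pass were also lower, except HIST1H1T (log2 fold change 0.49), which averaged 0.976 CPM. HIST1H1E was at 714 and 745 CPM before and 543 and 575 CPM after serum (-0.38), HIST1H3B at 295 and 280 and then 209 and 205 CPM (-0.47), and HIST1H4C at 259 and 242 and then 191 and 196 CPM (-0.37). The groups of these 3 genes, and of HIST2H2AC named next, did not overlap, but the share of all genes without overlap was not counted. HIST2H2AC, an H2A gene of the HIST2 cluster, was nearer its starting level, with 75.5 and 76.6 CPM before and 68.5 and 58.3 CPM after serum (-0.26). HIST2H2AA4 was the 1 member that rose (log2 fold change 3.10, adjusted p = 0.0316). It was at 1.48 and 1.45 CPM before and 20.8 and 4.45 CPM after serum, so that the replicates differed widely; without siControl after serum replicate 1 its log2 fold change was 1.602 and it did not pass. With its copy HIST2H2AA3 in the transcript estimates, it went from 619 to 391 per 1000000 estimated fragments (ratio 0.632). The other copied pairs, read in the same way, also had lower values after serum in siControl: the ratio was 0.541 for HIST1H4J with HIST1H4K, 0.599 for HIST2H4A with HIST2H4B and 0.648 for HIST2H3A with HIST2H3C.

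**Figure D4:**
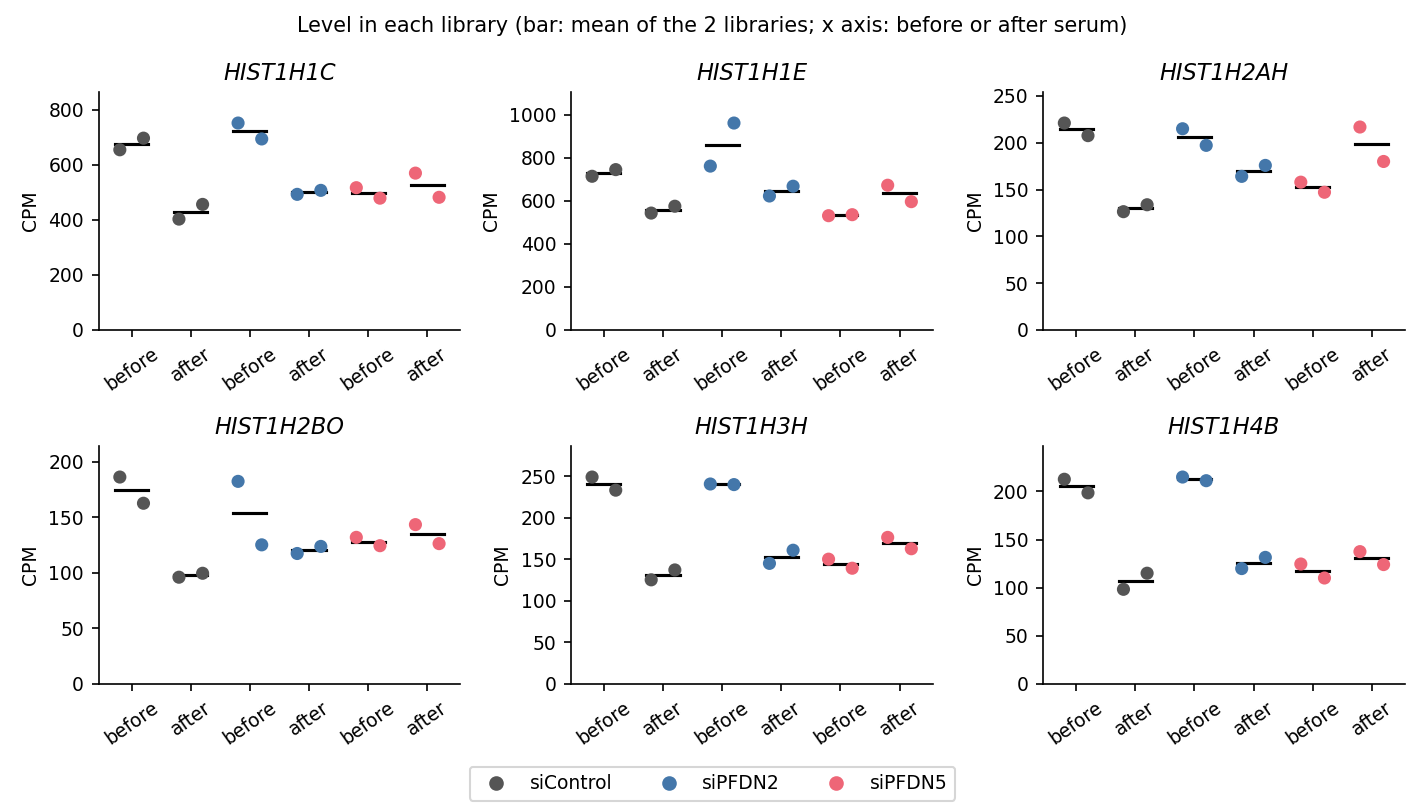
CPM of 6 named members in each of the 12 libraries (y axis from 0; x axis before or after serum, coloured by siRNA), with points for libraries and a bar for the mean of 2. In siControl the levels drop with serum, as in HIST1H4B from 213 and 199 to 98.3 and 115 CPM; in the libraries labelled siPFDN5 they start lower, at 125 and 110 CPM, and do not drop.

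With siPFDN2 the members were again lower after serum. The summed level was 7032 and 6447 CPM before serum and 5145 and 5575 CPM after it, a ratio of 0.795, and 38 of 40 members at 10 CPM or more were below 1 (median ratio 0.778, range 0.590 to 1.18). In the test, 4 members fell, where 0.86% of all genes did, and none rose, where 1.67% did; the median log2 fold change was -0.34. They were HIST1H4B (-0.76, adjusted p = 0.0162), HIST1H3D (-0.75, adjusted p = 0.0316), HIST2H3D (-0.73, adjusted p = 0.0307) and HIST1H3H (-0.65, adjusted p = 0.0242). HIST1H3D was at 81.1 and 105 CPM before and 50.3 and 60.3 CPM after serum. Without the library that stood apart, 23 of 60 members fell, where 2.3% of all genes did; without the other library of that group 19 fell and 6 rose, where 26.9% and 27.8% of all genes did, near or under the background of that fit. Without any single library of another group at most 1 fell. With the GC trend of each library removed the median was -0.05, 35 members were negative, and 9 fell, where 4.01% of all genes did. HIST1H4C, the exception at 1.18, was at 268 and 153 CPM before serum, where the lower value is from that library, and at 237 and 261 CPM after it.

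With siPFDN5 the members were not lower after serum. The summed level was 4937 and 4808 CPM in the starved cells and 6120 and 5376 CPM in those labelled as given serum, a ratio of 1.18. Over the 40 members at 10 CPM or more the ratio was above 1 in 38 (median 1.17, from 0.941 in HIST2H2AC to 1.64 in HIST1H4H). No member passed the test in either direction, where 2.72% of all genes rose and 1.49% fell, and the smallest adjusted p was 0.0516. At an unadjusted p under 0.05, 16 members were higher and none lower, where 22.8% of all genes passed in either direction, so this share was near the background. DESeq2 called 5 members higher, against 5.15% of all genes. Without siPFDN2 before serum replicate 2, 22 of 60 members rose, where 18.6% of all genes did. The median log2 fold change of the members was 0.29, and 56 of 58 were positive. With library sizes alone as scaling it was 0.12 with 39 positive, while the median of all genes moved from -0.01 to -0.19.

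Named members differed in this response. With siPFDN5, HIST1H4C had 177 and 161 CPM in starved cells and 284 and 237 CPM in those labelled as given serum. HIST1H3B was at 194 and 181 CPM and then at 258 and 241 CPM. HIST1H2BK was at 200 and 201 CPM and then at 288 and 244 CPM. These 3 genes were higher in both libraries after serum than in both before it, but the share of all genes so placed was not counted. HIST1H1C was at 517 and 479 CPM and then at 570 and 482 CPM, HIST1H2BO at 132 and 125 and then at 143 and 126 CPM, and HIST2H3D at 30.03 and 28.95 and then at 30.1 and 26.3 CPM. In these the groups overlapped.

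Before serum, the siPFDN5 libraries held less histone mRNA than siControl. The summed level had a ratio of 0.729 to siControl, and both siPFDN5 libraries lay below both siControl libraries. By class the ratio of summed CPM was 0.734 for H1, 0.761 for H2A, 0.760 for H2B, 0.657 for H3 and 0.689 for H4, and over the 40 members at 10 CPM or more it was below 1 in 40, from 0.567 (HIST1H3A) to 0.858 (HIST2H2AC). No member passed edgeR's test, where 0% of all genes did, and the smallest adjusted p of a member was 0.179. At an unadjusted p under 0.05, 38 of the 58 members were lower and none higher, where 9.1% of all genes passed in either direction. DESeq2 called 7 members lower, where 0.161% of all genes were. Without siPFDN2 before serum replicate 2, edgeR called 38 of 60 members lower, where 6.47% of all genes were. The median log2 fold change was -0.49. HIST1H4B was at 125 and 110 CPM against 213 and 199 CPM in siControl (-0.81 ± 0.14), and HIST1H3H at 150 and 139 against 249 and 233 CPM (-0.74 ± 0.13). HIST1H1E, the member with the highest level, was at 531 and 536 CPM against 714 and 745 CPM (-0.45 ± 0.14).

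With siPFDN2 before serum no such difference was seen. The ratio of summed CPM to siControl was 1.01, and of the 40 members at 10 CPM or more 20 were above and 20 below 1. No member passed the test, where 0% of all genes did. At an unadjusted p under 0.05, 2 members were higher and none lower, where 13.9% of all genes passed, and DESeq2 called none. Without the library that stood apart no member was called either, where 0.402% of all genes were. Leaving out the first library of that group in its place gave 7 members higher, where 24.1% of all genes were, and 15 lower, where 25.2% were, which is at or under the background of that fit.

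After serum the libraries labelled siPFDN2 and siPFDN5 lay above siControl. The ratio of summed CPM was 1.21 for siPFDN2 and 1.2975 for the libraries labelled siPFDN5, and 39 of the 40 members at 10 CPM or more were above 1 in each. These comparisons share the 2 siControl libraries after serum, so they are not independent. No member passed in either, where 0% of all genes did for siPFDN2 and 0.00402% (1 gene) for siPFDN5. At an unadjusted p under 0.05, siPFDN2 had 13 members higher and 1 lower, where 4.84% of all genes passed, and siPFDN5 had 29 higher and 1 lower, where 17.5% passed. DESeq2 called no member for siPFDN2, and for siPFDN5 it called 11 higher, where 2.04% of all genes were, and 1 lower. Without siPFDN2 before serum replicate 2, edgeR called 19 of 60 members higher with siPFDN2, where 3.46% of all genes were, and 37 with siPFDN5, where 14.9% were. HIST1H2AH was at 126 and 134 CPM in siControl, 164 and 176 CPM in siPFDN2 and 217 and 180 CPM under the siPFDN5 label. It had the largest ratio to siControl in the latter, 1.53.

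**Figure D5:**
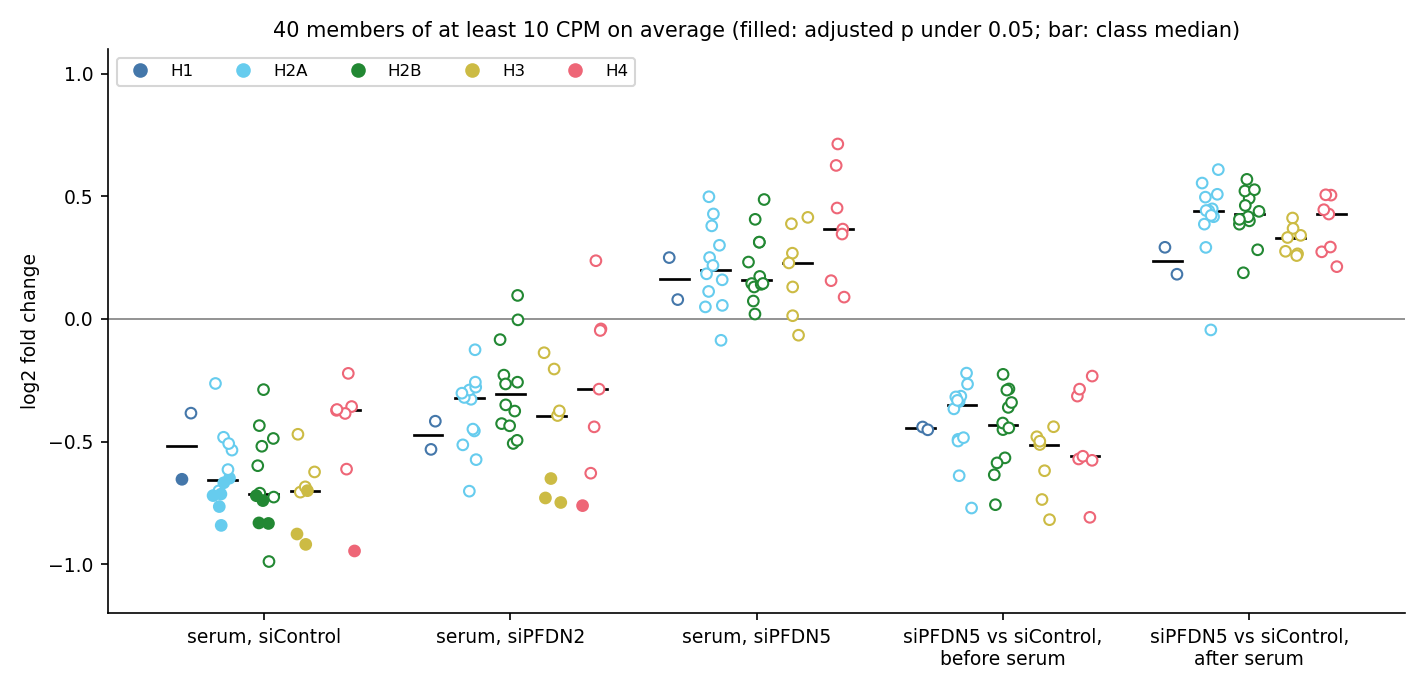
Log2 fold change of the 40 members with a mean of at least 10 CPM, by class, for the serum response in each siRNA and for siPFDN5 against siControl before and after serum, with filled points for an adjusted p under 0.05 and a bar for the class median. The points of the siControl serum response lie below 0 in 40 of 40 members, and most of those labelled siPFDN5 lie above it.

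The difference between the serum responses was then tested itself. For siPFDN5 against siControl the median difference of the log2 fold changes was 0.89, and 57 of 58 members were positive. No member passed the test, where 0% of all genes did, and the smallest adjusted p was 0.247. At an unadjusted p under 0.05, 45 members were higher and 1 lower, where 13% of all genes passed in either direction. DESeq2 called 26 members, where 0.209% of all genes were higher. Without siPFDN2 before serum replicate 2, edgeR called 42 of 60 members, where 11.1% of all genes were higher: 2 of 3 H1, 11 of 15 H2A, 12 of 17 H2B, 8 of 12 H3 and 9 of 13 H4. HIST1H3H had a difference of 1.106 ± 0.18, HIST1H4B of 1.102 ± 0.20 and HIST1H2AH of 1.1002 ± 0.19 (SE), while HIST2H2AC had 0.18 ± 0.21. This difference uses the same 4 siControl libraries and the same 2 siPFDN5 libraries before serum as the comparisons above. Between siPFDN2 and siControl the median difference was 0.25. No member was called, where 0% of all genes were, and 8 passed at an unadjusted p under 0.05, where 7.17% of all genes did. DESeq2 called none, and edgeR without the library that stood apart called none, where 0% of all genes were.

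Averaged over the 3 siRNAs, 13 members fell with serum, where 5.11% of all genes did, and 2 rose, where 5.85% did. Without siPFDN2 before serum replicate 2, 32 of 60 fell, where 13.1% of all genes did, and 2 rose, where 15.3% did. HIST2H3D (-0.57), HIST1H4B (-0.52), HIST1H2AB (-0.45), HIST1H3H (-0.43) and HIST3H2A (-0.41) were the 5 that fell most. HIST2H2AA4 and HIST1H2BG were those that rose. HIST1H2BG was between 0.112 and 0.646 CPM in every library.

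Of the members, 11 pairs start head to head within 400 bases, and all 11 pair an H2A with an H2B gene, 219 to 331 bases apart. Both genes were tested in 10 pairs, and in 9 of them both had negative serum changes in siControl. The exception was HIST1H2BG with HIST1H2AE, both under 1 CPM. Of all 58 members tested, 53 had negative changes there, so the count of pairs is not read as a trait of pairs. HIST1H2AD and HIST1H2BF, 277 bases apart, had -0.71 and -0.83, and HIST2H2BE and HIST2H2AC, 323 bases apart, had -0.74 and -0.26. By cluster the median serum change in siControl was -0.61 in the larger and -0.70 in the smaller cluster of chromosome 6, -0.62 in HIST2 and -0.70 in HIST3. The 13 members with an annotated spliced transcript had a median of -0.67, and the 45 tested members with only single-exon transcripts -0.61. Among these 13, the share of a member's estimates held by spliced transcripts was 100% in HIST1H2AC, where each of the 3 listed transcripts is spliced. It was 0% in HIST1H2BE, HIST1H3E and HIST1H4H, for which the estimates list no spliced transcript. These values were fixed by the transcripts listed and do not measure splicing. The share was 46.8% in HIST2H2BF, 41.3% in HIST1H2BN and 13.5% in HIST1H2BJ.

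Genes that make and handle histone mRNA were read in the fit to all libraries and, for the serum responses of siControl and siPFDN5 and for siPFDN5 before serum, also without siPFDN2 before serum replicate 2. In that second fit 6.49% of all genes rose and 5.52% fell with serum in siControl, 18.6% rose and 14.2% fell in the serum response labelled siPFDN5, and 4.31% were higher and 6.47% lower in siPFDN5 before serum. Of 23 genes of histone mRNA processing and decay, none passed in a single serum response or against siControl in the fit to all libraries. Averaged over siRNAs 2 fell there, where 5.11% of all genes did: the U7 subunit LSM11 (-0.52) and the decay helicase UPF1 (-0.50). In the second fit 1 rose and 1 fell with serum in siControl, 5 rose and 5 fell in the response labelled siPFDN5, and 2 were higher and 1 lower in siPFDN5 before serum. In siControl, SLBP had 110 and 112 CPM before serum and 105 and 127 CPM after it. With siPFDN5 it had 99.6 and 97.5 CPM before serum and, by label, 132 and 124 CPM after it. NPAT had 46.2 and 47.6 CPM and then 55.4 and 58.5 CPM in siControl. Neither SLBP nor NPAT passed in the fit to all libraries. In the second fit SLBP rose in the response labelled siPFDN5 (log2 fold change 0.38) and NPAT rose with serum in siControl (0.27).

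Of 15 histone transcription factors and S-phase kinases and inhibitors, 1 rose and 1 fell in the serum response labelled siPFDN5. The phosphatase CDC25A rose (0.63, edgeR, adjusted p = 0.0206), where 2.72% of all genes did. The CDK inhibitor CDKN1B fell (-1.03, edgeR, adjusted p = 0.00193), where 1.49% of all genes did. None of the 15 passed in the serum response of siControl or siPFDN2. In the second fit 6 rose and 2 fell in the response labelled siPFDN5, 1 rose and 3 fell with serum in siControl, and 1 was higher and 5 lower in siPFDN5 before serum. Of 19 histone chaperone genes none passed in the fit to all libraries. In the second fit 3 rose and 1 fell with serum in siControl, 6 rose and 3 fell in the response labelled siPFDN5, and 1 was higher and 3 lower in siPFDN5 before serum. Of the 13 replication-independent and variant histone genes, 12 were tested. H3F3B (0.76) and its retrocopy H3F3C (0.85), which may share fragments, rose in the serum response labelled siPFDN5, where 2.72% of all genes did. In the second fit 7 rose there and none fell, 2 rose and 1 fell with serum in siControl, and 2 were higher and 3 lower in siPFDN5 before serum.

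The S-phase and replication fork genes, which rise as cells enter S phase, are set beside the members. In siControl none of 26 passed with serum and their median was 0.12, where the histone members had -0.62; in the second fit 6 rose and none fell. In the serum response labelled siPFDN5, 4 rose (2.72% of all genes did), CDC6 (0.68), GINS2 (0.68), GINS3 (0.64) and FEN1 (0.55), and their median was 0.28, where the members had 0.29; in the second fit 19 rose and 1 fell. In siPFDN5 before serum none passed, their median was -0.26 and 24 of 26 were negative; in the second fit 13 were lower and 1 was higher. Whether a change in the share of cells in S phase took part in the histone values was not tested.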

How the data were processed

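RNA from 12 libraries was measured by RNA-seq; per the labels, the RNA was copied from random hexanucleotide primers and 18S rRNA was removed. The authors deposited whole-number counts of fragments over exons and over gene bodies, made with featureCounts 1.5.2 on Ensembl 87 (GRCh38), per the file headers: both ends had to be mapped, every gene under a fragment got a count, and strand was not used. Reads of a gene and its antisense partner therefore cannot be told apart. The files per sample hold estimated counts per transcript, deposited under names that say TPM; the submitters' processing notes list kallisto 0.43 and HISAT2 0.12.2. The count tables hold 6 columns of no sample, not used here.

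Groups were read from the sample titles. Exon counts were scaled by TMM and fitted as 6 group means over all 12 libraries with edgeR 4.0.16 (R 4.3.3, limma 3.58.1), after filterByExpr, with robust quasi-likelihood tests, two-sided, and Benjamini-Hochberg adjustment over all genes tested. Fold changes used edgeR's default prior count. Log2 CPM in the checks of replicates, GC content and pairing used a prior count of 2. CPM are counts per 1000000 TMM-scaled fragments; ratios of levels are of group means. The values of the copied pairs are transcript estimates divided by library totals. The method was tested on simulated data. Alternatives were upper-quartile and library-size scaling, no filter, DESeq2 1.42.0, gene-body counts, rounded transcript estimates, each library left out, a replicate block, GC trends removed, and only the groups compared.

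Named members were the 3 highest per class by CPM per kilobase, up to 5 called in each direction per comparison, and copies; other members and neighbour runs given by their range or place were chosen after their values were seen. The members and gene lists were chosen with earlier results of these data known.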

Additional observations from a re-analysis of the deposited data

How the results depend on the processing

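The direction of the median log2 fold change of the members stayed the same under each library left out in 9 of the 10 comparisons; in siPFDN2 against siControl before serum it went from -0.08 to 0.08. The counts of members called moved more. With each library left out in turn, the members called ranged from 0 to 41 for serum in siControl, 0 to 25 in siPFDN2, 0 to 22 in siPFDN5 and 4 to 34 averaged. Against siControl they ranged from 0 to 22 for siPFDN2 and 0 to 38 for siPFDN5 before serum, and from 0 to 19 and 0 to 37 after serum. For the difference of serum responses they ranged from 0 to 23 for siPFDN2 and 0 to 42 for siPFDN5. In the fits that gave the highest counts, the share of all genes called was 54.7% for serum in siPFDN2, 49.3% for siPFDN2 before serum and 45.6% for the siPFDN2 difference, above the members' 41.7%, 36.7% and 38.3%. It was 32.4% for serum in siPFDN5, 28.4% averaged, 26.2% for siPFDN5 after serum, and 5.91% to 18.5% in the other 4. For serum in siControl (16 called), no filter gave 29, only the groups compared 37, DESeq2 31 and unshared members only 10. For siPFDN2 (4 called), library size only gave 11, no filter 15, the GC trend removed 9, also with the replicate block 9, only the groups compared 0, DESeq2 13 and unshared members only 2. For siPFDN5 (0 called), no filter gave 7, gene-body counts 9, transcript estimates 1, the GC trend removed 3, with the replicate block 4, only the groups compared 26 and DESeq2 5. For the average (15 called), upper-quartile scaling gave 24, library size only 30, transcript estimates 9 and unshared members only 8. For siPFDN5 against siControl before serum, no filter gave 11, the GC trend removed 5, with the replicate block 2, only the groups compared 41 and DESeq2 7; after serum these gave 7, 14, 12, 31 and 12. For siPFDN2 after serum, no filter gave 1 and only the groups compared 3. For the difference of serum responses, no filter gave 1 in siPFDN2 and 33 in siPFDN5, where the GC trend removed gave 4, with the replicate block 1, only the groups compared 40 and DESeq2 26. Restricting to unshared members was chosen after seeing the data and counts fewer members by construction. For the others the cause was not tested. Apart from those given above, shares of all genes called are not set beside the counts under these settings. The fits differ in how many genes they call, so a higher or lower count here is not a result about the members. Of 1379 alternatives for 63 named values, 1044 kept direction and side of the threshold and 6 turned: HIST2H2AA4 fell to -0.523 (serum in siControl) and -0.2541 (average) in transcript estimates; HIST1H1T, near 1 CPM, went to 0.002776 and 0.003393 in siPFDN5 before serum (upper-quartile scaling, library size only) and ranged there from -0.06932 to 0.01367 with each siControl library before serum left out, and in the siPFDN5 difference from -0.2048 to 0.6238 with each siControl library after serum left out.

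The replicate numbers are not said to pair libraries, and deviations of same-numbered libraries correlated at -0.129 to 0.194 over 15 pairs of groups. With the replicate block, 12 members were called for serum in siControl, 4 in siPFDN2, 12 averaged, and 0 in the other 7 comparisons. These counts too are given without the share of all genes called.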
